A study of Mus musculus with 12 samples.

Results

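Testes of F1 mice that descended from males given an lncRNA5251 overexpression virus (titled F1_5251OV, here OV) were compared directly with testes of F1 mice that descended from males given an lncRNA5251 knockdown virus (titled F1_5251KD, here KD). The comparison used 6 of the 12 RNA-seq libraries of the series, 3 of each group, chosen by their titles. No library of the control virus groups, 3NC and 5NC, entered it. Per the study, the founder males were injected in the testis with lentivirus and then mated, and the testes of their male offspring were collected at 8 weeks of age. The strain is spelled "IRC mouse" in the labels, while the study names ICR, an outbred stock. The design text of the series says instead that the F1 testes were themselves transfected. The knockdown was a mixture of viruses with hairpins against 3 positions in the LV3 vector, and its control, 3NC, carried a control hairpin. The overexpression virus was built in the LV5 vector, which without the insert is its control, 5NC. The vector and the insert therefore differed together between OV and KD and cannot be told apart in this contrast. Whether replicates were separate animals or litters is not stated in the labels, so p-values measure only the spread between libraries, which may be technical.

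The testis makes sperm in tubules, where spermatogonia divide, spermatocytes go through meiosis and round spermatids elongate into sperm, all in contact with Sertoli cells. Between the tubules, Leydig cells make testosterone from cholesterol under the control of luteinizing hormone, and resident macrophages lie beside them. Spermatids also transcribe large families of near-identical gene copies on the X and Y chromosomes, such as Slx on the X. Because the copies differ by few bases, a read can often match several of them.

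Of the 20788 genes in the table, 15962 had 10 or more reads in 3 or more of the 6 libraries and were tested. Of these, 13 reached 10 reads only in OV libraries and 40 only in KD libraries. The 6 libraries held 12719699 to 15495350 estimated reads. Levels are given as CPM, which relates a gene's reads to the total of its library, scaled over all 12 libraries by the TMM method, and differences as log2 fold changes of OV over KD with their standard error (SE). The elongating spermatid markers summed to between 28430 and 36400 CPM in the 6 libraries and the epididymis markers to between 4.46 and 27.1 CPM, the highest in KD replicate 1 and at most 7.29 CPM in the other 5, with Lcn5, Lcn8, Defb48 and Ovch2 at 0 reads in all 6. The controls had 24.2 to 332 CPM of the epididymis markers. Replicate 1 of KD stood apart: the first principal component, with 50.3% of the variance, placed it at 68.3 and the other 5 libraries between -20.6 and -4.55. On the second, with 20.4%, replicate 3 of OV lay at -40.7 and the other 5 between -5.54 and 17.03. Results that rest on KD replicate 1 are given with and without it.

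The RNA that the viruses were designed around, lncRNA5251, was not analysed here as a gene of the table. The study's 3 hairpins are shown because they identify what the knockdown virus was made to bind. Each of the 3 matched, in all 21 bases and in the sense direction, 1 annotated mouse transcript, the 3' UTR of Purb, a gene for a purine-rich single-stranded DNA-binding protein. Capitals mark the matched bases, and the matches lie on the minus strand of build GRCm38 at chr11:6468416-6468436, chr11:6467969-6467989 and chr11:6468248-6468268.
Hairpin 1: GCTGGGACTTAATGTCCTTCT
Hairpin 2: GCATGGGCAATTCAAACAAAT
Hairpin 3: GCTTATTATGCATCGTAAACC

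Purb stood at 76.8, 79.0 and 92.7 CPM in the 3 libraries of OV and at 84.3, 78.9 and 79.6 CPM in those of KD. The groups overlapped, and the log2 fold change was 0.03 (SE 0.09, 95% confidence interval -0.19 to 0.25, adjusted p = 0.981 in edgeR's quasi-likelihood test with Benjamini-Hochberg adjustment, n = 3 against 3). In the 6 control libraries Purb stood between 76.9 and 98.6 CPM. These values count the reads assigned to Purb. Whether any reads of lncRNA5251 are among them was not tested, so the values are no check of the labels for lncRNA5251.

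With all 6 libraries, 3 genes passed an adjusted p of 0.05, or 0.0188% of those tested. Gm6121 and Gm14525, X-linked copies of the Slx family, fell in OV relative to KD, and Gm3417, a chromosome 17 copy of Tcte3, rose. Tcte3 codes for a dynein light chain of the sperm tail. In what follows, passed means an adjusted p under 0.05 in edgeR's quasi-likelihood test, the source of each adjusted p for which no other tool is named. DESeq2, run as an alternative, called 42 genes on the same 6 libraries, the 3 among them. Before adjustment, 326 genes (2.04%) had p under 0.05 with the higher level in OV and 527 (3.3%) with the lower. The 3 calls depended on which libraries were in the fit: none of them passed without OV replicate 1, replicate 2 or replicate 3, or without KD replicate 2. Their log2 fold changes in these 4 fits ran from -3.69 to -3.38 for Gm6121, from -2.47 to -2.26 for Gm14525 and from 1.47 to 1.71 for Gm3417. Without KD replicate 1, all 3 passed with 6 further genes (0.0564% of those tested), and without KD replicate 3 only the X-linked pair passed. Across all genes the log2 fold change had a median of -0.01, and its quartiles were -0.13 and 0.10. The libraries of the groups did not overlap for 847 genes higher in OV (5.31%) and 832 lower (5.21%). Shares of about this size also arise when the order of the 6 libraries is random, so non-overlap alone does not set a gene apart.

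Gm6121 (chrX:26912743-26935669) had 1.77, 1.26 and 1.19 CPM in OV and 19.2, 16.7 and 11.7 CPM in KD. All 3 values of OV lay below all 3 of KD, and the log2 fold change was -3.48 (SE 0.26, adjusted p = 0.0180), an 11.2-fold lower level in OV. The controls lay between 12.3 and 23.4 CPM, so OV stood below every other library of the series and KD within or just under the control range. Gm14525 (chrX:26672780-26702638) gave the same order, with 2.89, 3.33 and 3.89 CPM in OV and 19.04, 18.99 and 13.8 CPM in KD. Its log2 fold change was -2.36 (SE 0.20, adjusted p = 0.0192), and the controls had 10.7 to 21.8 CPM. Both were also lower without KD replicate 1, by -3.32 and -2.29 on the log2 scale. With a replicate block only 1 of the pair passed.

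Both genes sit in an X-linked interval of 18 tested genes between 24552250 and 30843469, a stretch chosen after their values were seen. Slx itself, whose protein acts in spermatids in opposition to that of the Y-linked Sly, had 0.0657, 0.200 and 0.397 CPM in OV and 1.08, 0.996 and 0.742 CPM in KD. The values rested on 9 reads in OV and 43 in KD, so it reached the count minimum only through KD, where it is high, and its log2 fold change of -2.10 (SE 0.53, adjusted p = 0.927) is a description. Gm10487 had 3.48, 5.99 and 10.5 CPM in OV against 42.8, 41.0 and 46.0 CPM in KD (log2 fold change -2.72, SE 0.32, adjusted p = 0.121). Gm1993 lay the other way, with 16.5, 12.98 and 15.2 CPM in OV and 4.05, 4.78 and 6.07 CPM in KD (log2 fold change 1.58, SE 0.19, adjusted p = 0.121). Neither of the last pair passed with all libraries by edgeR, and both passed without KD replicate 1 (adjusted p = 0.0358 and 0.0476). DESeq2 called both with all libraries (adjusted p = 4.20e-15 and 1.35e-07). For Gm1993 the controls had only 1.25 to 2.63 CPM, so that both virus groups lay above all 6 of them and OV above KD.

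Gm4836 had 53.1, 49.9 and 59.7 CPM in OV and 18.5, 32.3 and 10.2 CPM in KD. Its log2 fold change was 1.41 (SE 0.35), which did not pass by edgeR (adjusted p = 0.927) and did by DESeq2 (adjusted p = 0.00583). In the controls Gm4836 ranged from 2.75 to 73.2 CPM and Gm10487 from 0.860 to 52.9 CPM, so both copies spanned a wide range among libraries that had no lncRNA5251 insert. In the replicate of 5NC with 52.9 CPM of Gm10487, Gm4836 was at 2.75 CPM, and in the replicate with 0.860 CPM of Gm10487 it was at 60.9 CPM. In all, 2 of the 18 genes passed, both lower in OV. Gm10096 had 0, 1.73 and 0.397 CPM in OV and 1.90, 0.930 and 18.1 CPM in KD, which overlapped (log2 fold change -3.27, SE 1.33, adjusted p = 0.927). At an unadjusted p under 0.05, 6 of the 18 genes were lower and 2 higher, against 3.3% and 2.04% of all genes. The 6 include Gm10096 and the 2 that passed. The groups did not overlap for 7, Slx included, 5 of them lower and 2 higher, against 5.21% and 5.31% of all genes. As the interval was chosen for its members' values, these counts are a description.

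**Figure D1:**
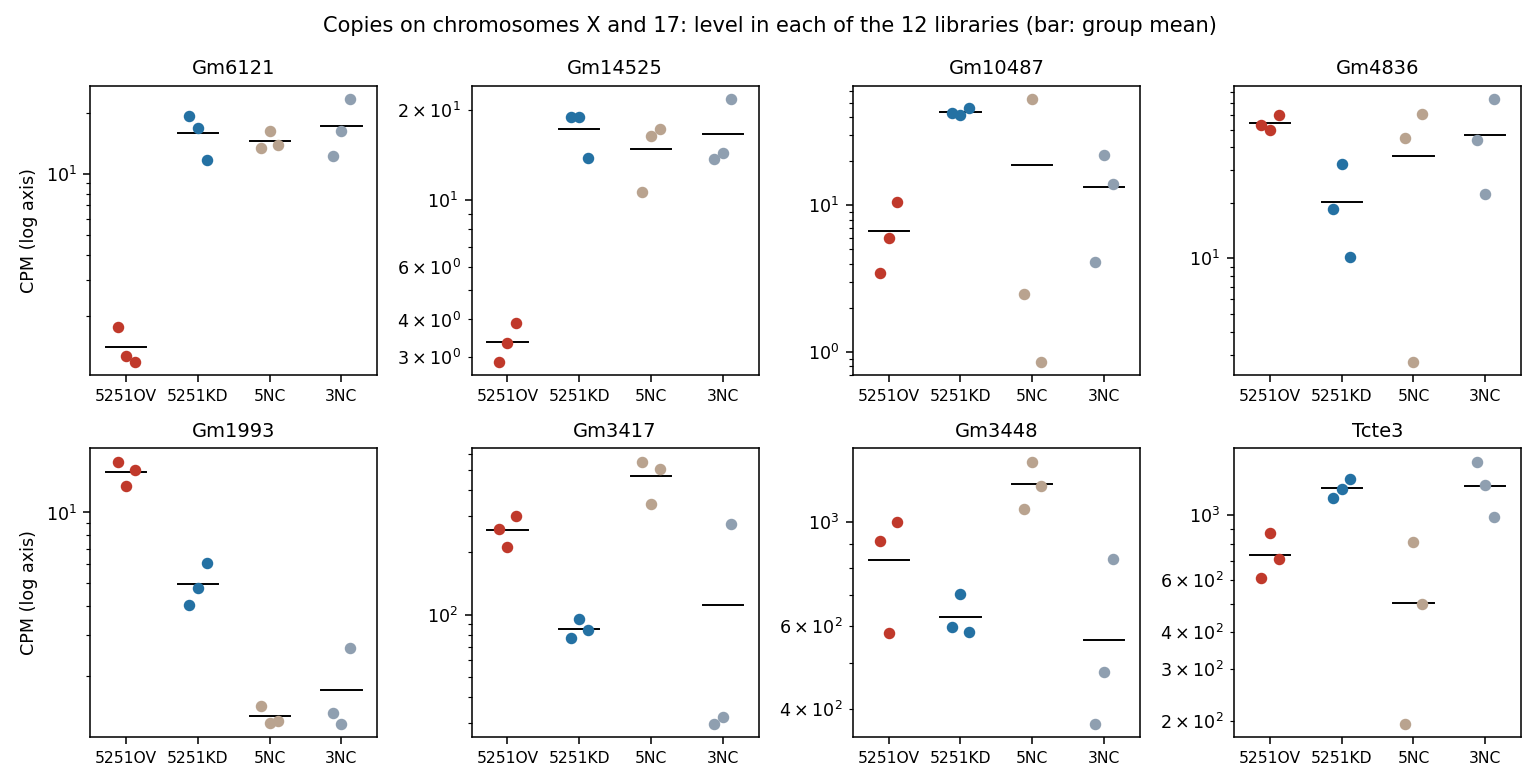
Level in CPM (log axes) of 8 gene copies in each of the 12 libraries, by group, with a bar at the group mean. Gm6121 and Gm14525 lie lowest in the 3 libraries of OV, while Gm10487, Gm4836 and the chromosome 17 copies Gm3417, Gm3448 and Tcte3 also spread widely among the control libraries.

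The sequences show how alike these copies are. Gm14525 and Gm6121 differed at 4 of 893 aligned transcript bases, and Gm4836 and Gm10487 at 0 of 907. Every one of the 875 windows of 50 bases in the Gm6121 transcript was also found in a transcript of another gene, as were all 858 of Gm10487 and 832 of 844 of Gm14525. For Gm1993 it was 823 of 1082 windows and for Slx 517 of 876. By the study's aligner setting, every equally good hit of a read was reported, and no source used here says how the authors then divided such reads, so the split of reads among them is uncertain. The stretches of promoter printed here (RefSeq, GRCm38.p6, 100 bases each, minus strand) are those of 5 copies described here. Capitals mark bases that differ from Gm6121. They lie at chrX:26935710-26935809 (Gm6121), chrX:26702682-26702781 (Gm14525), chrX:25570462-25570561 (Gm1993), chrX:26545578-26545677 (Slx) and chrX:30843482-30843581 (Gm10487).
Gm6121: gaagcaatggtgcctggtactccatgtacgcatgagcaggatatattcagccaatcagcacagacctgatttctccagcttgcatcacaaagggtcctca
Gm14525: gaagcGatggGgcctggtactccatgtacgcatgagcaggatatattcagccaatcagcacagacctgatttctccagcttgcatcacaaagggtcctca
Gm1993: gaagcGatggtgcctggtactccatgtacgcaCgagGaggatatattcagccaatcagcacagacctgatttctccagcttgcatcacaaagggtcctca
Slx: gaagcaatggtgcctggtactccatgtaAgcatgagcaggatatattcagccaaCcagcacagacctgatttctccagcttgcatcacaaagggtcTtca
Gm10487: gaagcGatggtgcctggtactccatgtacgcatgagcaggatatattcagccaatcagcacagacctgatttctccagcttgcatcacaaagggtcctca

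Gm6121, lower in OV, and Gm1993, higher in it, differed at 3 of these 100 bases, and Gm10487 and Gm6121 at 1. The stretch of Gm4836 had the same letters as that of Gm10487. Added up, the 18 genes of the interval gave 312, 351 and 347 CPM in OV and 338, 428 and 382 CPM in KD. The sums overlapped, and their means were 337 ± 21.5 and 383 ± 45.2 CPM (SD, n = 3 each), a ratio of 0.880. In the controls the sum was 256 to 427 CPM. When the reads of the interval and of the Tcte3 copies were each added into 1 row before the fit, a step chosen after the data were seen, no gene passed (0 of 15942 by edgeR's quasi-likelihood test, with 845 at an unadjusted p under 0.05).

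**Figure D2:**
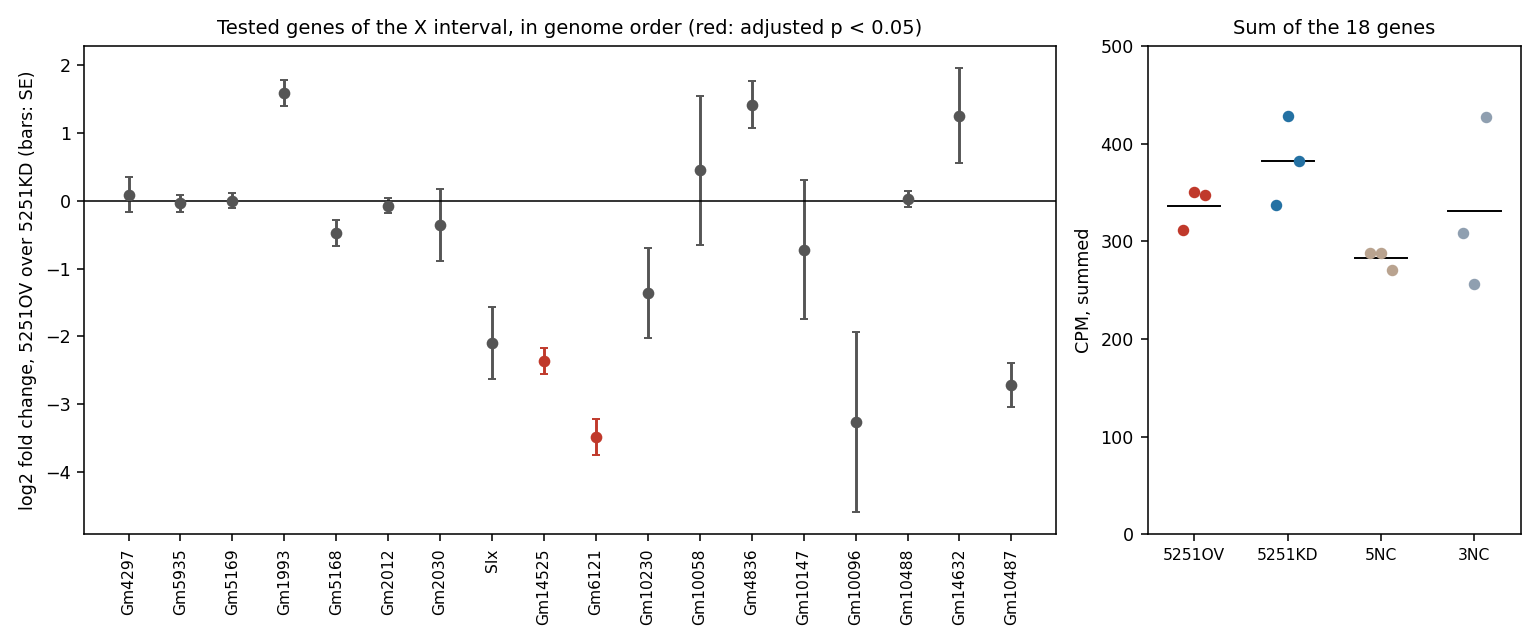
Left, log2 fold change of OV over KD with its SE for the 18 tested genes of the X interval in genome order, with genes past an adjusted p of 0.05 in red. Right, their summed level in CPM in each of the 12 libraries with group means, where the sums of OV (312 to 351 CPM) and KD (338 to 428 CPM) overlap.

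The only gene that passed in the other direction, Gm3417 (chr17:14964189-14978812), had 260, 212 and 301 CPM in OV and 77.0, 95.1 and 84.2 CPM in KD. Every library of OV lay above every library of KD, at a log2 fold change of 1.59 (SE 0.14, adjusted p = 0.0214), a 3.02-fold higher level. In the fit of all 12 libraries, whose shared spread includes the controls, it did not pass (adjusted p = 0.999), nor with a replicate block (adjusted p = 0.0976), at log2 fold changes of 1.595 and 1.586. The controls spanned both groups, with 345 to 550 CPM in 5NC and 29.4, 31.8 and 273 CPM in 3NC. Its neighbour Tcte3 (chr17:15027154-15041559) lay the other way, with 609, 870 and 710 CPM in OV and 1142, 1230 and 1329 CPM in KD. The log2 fold change of Tcte3 was -0.76 (SE 0.13), which did not pass by edgeR (adjusted p = 0.534) and did by DESeq2 (adjusted p = 1.99e-05). Gm3448, the copy between them, had 914, 581 and 1001 CPM in OV and 597, 702 and 583 CPM in KD (log2 fold change 0.41, SE 0.19, adjusted p = 0.951).

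Over 712 aligned bases, the transcripts of Gm3417 and Gm3448 differed at 1, and 613 of the 663 windows of 50 bases in Gm3417 occurred in another gene. Their promoters and that of Tcte3 were identical over all of the RefSeq window. A stretch of 100 bases is shown once for the 3 genes, since the copy that rose shares it with its neighbours. It lies at chr17:14978863-14978962, chr17:15010235-15010334 and chr17:15041610-15041709 on the minus strand.
Gm3417, Gm3448 and Tcte3: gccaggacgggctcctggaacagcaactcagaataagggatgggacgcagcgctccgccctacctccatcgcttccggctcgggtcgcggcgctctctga

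The 3 genes and Gm3435, a gene model beside them, summed to 1792, 1665 and 2020 CPM in OV and to 1822, 2031 and 2003 CPM in KD. The sums overlapped, with means of 1826 ± 180 and 1952 ± 114 CPM (SD, n = 3 each).

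Genes of the Leydig cell list lay higher in OV, without any of the 19 passing by edgeR's quasi-likelihood test. Of the 19 tested, 17 had a log2 fold change above 0, 12 had an unadjusted p under 0.05 and all 12 were higher in OV, against 2.04% of all genes. Like all the gene lists, this one was chosen with earlier results of these data known, so its counts are a description. The groups did not overlap for 9 of the 19, all higher in OV, against 5.31% of all genes. The list's median log2 fold change was 0.72, against -0.01 over all genes. Without KD replicate 1, 14 were at an unadjusted p under 0.05, all higher, against 3.08% of all genes higher and 2.41% lower, and the median was 0.85. By DESeq2, 7 of the 19 passed an adjusted p of 0.05, all higher in OV, against 23 higher of all 15907 genes it tested. By limma voom with sample quality weights 2 passed, both higher, against 8 higher of all 15962 genes. Both tools called Klk1b22. That gene reached the count minimum only through OV, where it is high. Of the other 18, 11 were higher at an unadjusted p under 0.05, 13 without KD replicate 1, and the median was 0.65. The list's summed level was 1800, 2253 and 2472 CPM in OV and 1753, 1598 and 1345 CPM in KD, so the lowest OV library and the highest KD library nearly met. In the controls it was 1844 to 2478 CPM in 5NC and 2577, 2359 and 1292 CPM in 3NC, so 3NC spanned both groups. In bulk testis, fewer cells of a type and less RNA per cell cannot be told apart.

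The largest differences in the list were those of glandular kallikreins, secreted serine proteases encoded by a cluster on chromosome 7. Klk1b24 had 9.52, 15.0 and 16.7 CPM in OV and 2.85, 2.19 and 4.05 CPM in KD (log2 fold change 2.17, SE 0.29, adjusted p = 0.220). Klk1b21 had 9.46, 16.2 and 20.6 CPM against 3.67, 1.73 and 3.37 CPM (log2 fold change 2.39, SE 0.36, adjusted p = 0.337). Klk1b27 (log2 fold change 2.59, SE 0.53) and Klk1b22 (3.39, SE 0.52) did not overlap between the groups either, and neither passed (adjusted p = 0.833 and 0.337). Klk1b22 rested on 11 reads in KD and 111 in OV, and reached the count minimum only through OV, where it is high. DESeq2 called all 4.

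The kallikreins were not highest in OV. In the controls Klk1b21 had 43.6 to 46.1 CPM in 5NC and 44.0 and 38.5 CPM in replicates 1 and 2 of 3NC, and only 4.73 CPM in replicate 3. The other 3 kallikreins showed the same split, for example 33.4, 33.1 and 1.96 CPM of Klk1b24 in 3NC. For Klk1b21, KD thus lay below all 6 control libraries and OV below 5 of them. The 4 genes are related: the transcripts of Klk1b21 and Klk1b24 were 94.1% identical, and 239 of the 822 windows of 50 bases in Klk1b21 were found in another gene, far fewer than for the X-linked copies. Their promoters (plus strand, RefSeq, GRCm38.p6) are shown for the pair that differs in the stretch chr7:44102192-44102291 and chr7:44052168-44052267, with capitals at the bases of Klk1b27 that differ from Klk1b21; Klk1b24 had the letters of Klk1b21.
Klk1b21: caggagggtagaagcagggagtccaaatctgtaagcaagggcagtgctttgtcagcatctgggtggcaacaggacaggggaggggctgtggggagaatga
Klk1b27: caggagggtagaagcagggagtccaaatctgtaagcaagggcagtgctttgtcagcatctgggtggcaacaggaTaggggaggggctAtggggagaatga

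Some genes of testosterone synthesis, chosen after their values were seen, also lay higher in OV. Others, Star, Cyp11a1 and Hsd3b1, overlapped between the groups with all libraries. Lhcgr, the luteinizing hormone receptor, had 8.997, 16.8 and 22.4 CPM in OV and 5.88, 7.11 and 4.86 CPM in KD (log2 fold change 1.43, SE 0.32, adjusted p = 0.927). Cyp17a1, the enzyme that converts progestins to androgens, had 384, 650 and 732 CPM against 298, 308 and 183 CPM (log2 fold change 1.16, SE 0.27, adjusted p = 0.927). For both, the groups did not overlap. Hsd3b6, a 3-beta-hydroxysteroid dehydrogenase of adult Leydig cells, had 39.2, 57.1 and 52.0 CPM against 29.9, 27.9 and 27.1 CPM (log2 fold change 0.80, SE 0.14, adjusted p = 0.534). Scarb1, the receptor that takes up cholesterol from lipoproteins, had a log2 fold change of 0.48 (SE 0.11, adjusted p = 0.927). DESeq2 called Lhcgr, Hsd3b6 and Scarb1. In the controls Lhcgr had 10.3 to 17.2 CPM and Cyp17a1 309 to 752 CPM, above all of KD. Hsd3b6 had 23.1 to 51.7 CPM there and Scarb1 81.2 to 141 CPM, and both reached below all of KD. Star, which moves cholesterol into mitochondria, had 112, 147 and 163 CPM in OV and 116, 82.1 and 51.5 CPM in KD (log2 fold change 0.76, SE 0.27, adjusted p = 0.927). Without KD replicate 1 its groups did not overlap, and its log2 fold change was 1.07 (SE 0.21, adjusted p = 0.248).

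Further Leydig genes overlapped between the groups with all libraries. Insl3, a hormone of mature Leydig cells, had 644, 628 and 683 CPM in OV and 705, 642 and 625 CPM in KD. Its log2 fold change was -0.01, with a 95% confidence interval of -0.20 to 0.17. Cyp11a1, which cleaves the cholesterol side chain, had 136, 202 and 201 CPM against 180, 112 and 67.4 CPM (log2 fold change 0.58, SE 0.32, adjusted p = 0.951). The highest value of KD was its replicate 1, and without it the groups did not overlap and the log2 fold change was 0.99 (SE 0.23, adjusted p = 0.394). Hsd3b1 had a log2 fold change of 0.26 (SE 0.19). Tspo, a mitochondrial outer membrane protein also made by macrophages, was the lowest member at -1.23 (SE 0.60) with all libraries and at -0.04 without KD replicate 1.

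**Figure D3:**
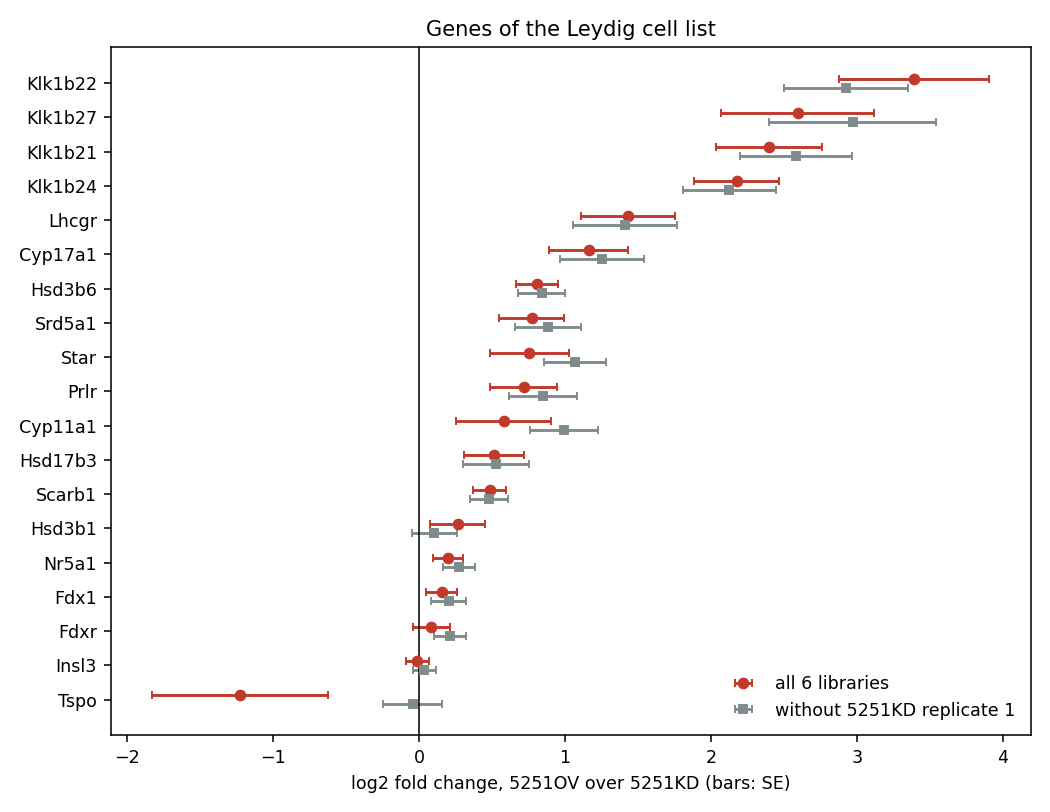
Log2 fold change of OV over KD with its SE for the 19 genes of the Leydig cell list, with all 6 libraries (circles) and without KD replicate 1 (squares). The kallikreins lie highest, at 2.17 to 3.39 with all libraries, Insl3 lies at -0.01 and only Tspo shifts by more than 1 when the library is left out.

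Immune genes lay lower in OV, and most of that distance came from KD replicate 1. None of the members of the lymphocyte, macrophage, antigen presentation and interferon response lists passed an adjusted p of 0.05 by edgeR's quasi-likelihood test. The 19 lower calls of DESeq2 held 1 member of these lists, Cxcl10. Outside the lists those calls included Jchain, Gbp2b, Ifi205, Clec7a, Cxcl1 and Tgtp2. Of 19 lymphocyte genes tested, 12 had an unadjusted p under 0.05, as did 8 of 19 macrophage, 12 of 17 antigen presentation and 16 of 28 interferon response genes, all lower in OV, against 3.3% of all genes. The lymphocyte and interferon counts hold 1 gene each, Gzmb and Cxcl10, that reached the count minimum only through KD, where it is high, and without them are 11 of 18 and 15 of 27. The medians of the 4 lists were -2.15, -1.34, -1.66 and -1.96 on the log2 scale. Without KD replicate 1 the counts were 4, 2, 7 and 11 lower genes, with 2 macrophage genes higher, against 2.41% lower and 3.08% higher of all genes. The medians were then -0.56, -0.13, -0.67 and -0.34.

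The summed levels show the library. The lymphocyte list was at 54.5, 49.8 and 37.4 CPM in OV and at 369, 66.7 and 61.4 CPM in KD. The interferon response list was at 114, 122 and 149 CPM in OV and at 1136, 131 and 242 CPM in KD. The macrophage list was at 475 to 491 CPM in OV and at 1256, 485 and 531 CPM in KD, and the antigen presentation list at 373 to 542 and at 2497, 426 and 616 CPM. Among the controls, replicate 2 of 3NC stood out in the same way, with 561 CPM of the lymphocyte list against 41.7 to 81.5 CPM in the other 5. For the interferon response list it had 1647 CPM and the other 5 had 91.2 to 615 CPM, a range that held replicates 2 and 3 of KD. For the lymphocyte list, replicates 2 and 3 of KD also lay above all of OV, though within the range of those 5 controls.

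Single genes followed this pattern. Ptprc, the CD45 antigen carried by all white blood cells, had 3.35, 2.79 and 3.41 CPM in OV and 71.7, 6.91 and 5.47 CPM in KD (log2 fold change -3.14, SE 0.98, adjusted p = 0.927, and -0.96 without KD replicate 1). C1qa, a complement chain made by macrophages, had 15.4, 14.3 and 9.04 CPM against 104, 12.6 and 17.4 CPM, and overlapped between the groups (log2 fold change -1.79, and -0.21 without KD replicate 1). Cd3e, a T cell receptor chain, was below the count minimum, with 6, 0 and 0 reads in OV and 57, 7 and 2 in KD. Genes whose groups did not overlap and that lay among the lowest were Gbp2b, an interferon-induced GTPase (log2 fold change -5.71), Saa3, an acute-phase protein (-5.58), Jchain, which joins the subunits of polymeric antibodies (-5.42), Fcgr4, a receptor for antibodies (-5.09), and Gzmb, a protease of killer cells (-5.04). At higher levels they included Serpina3g (-4.73), Gbp4 (-3.70) and Ly6a (-3.36). All of these are smaller without KD replicate 1, at -2.96 for Gbp2b, -2.85 for Saa3, -2.40 for Fcgr4, -1.96 for Gzmb, -1.38 for Gbp4 and -1.32 for Ly6a, and as given with their values for Jchain and Serpina3g. None of these 8 passed with all libraries by edgeR, and DESeq2 called Jchain and Gbp2b (adjusted p = 3.95e-05 and 0.0101). Gbp2b, Fcgr4 and Gzmb, with 21, 12 and 12 reads in OV, reached the count minimum only through KD, where they are high.

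A few immune genes also set the groups apart without that library. Jchain had 1.12, 0.865 and 0.714 CPM in OV and 89.9, 18.2 and 9.18 CPM in KD, and passed without KD replicate 1 at a log2 fold change of -3.91 (adjusted p = 0.00880). Crtam, a surface protein of activated T and natural killer cells, had 2.10, 1.40 and 1.82 CPM against 2.15, 7.77 and 8.91 CPM, so the library that was high for the other immune genes was the lowest of its group. It passed without that library (log2 fold change -2.23, adjusted p = 0.0123), as did Serpina3g (-2.07, adjusted p = 0.0476). In the controls Crtam had 22.01 CPM in replicate 3 and 9.20 CPM in replicate 1 of 3NC. The remaining call without the library was Gm1988, a protein-coding gene model of chromosome 7, higher in OV with 24.5, 24.4 and 29.8 CPM against 2.59, 12.02 and 11.1 CPM (log2 fold change 1.18 without it, adjusted p = 0.0398). DESeq2 called it with all libraries (adjusted p = 0.0469). Jchain, Crtam, Serpina3g and Gm1988 were named after their values were seen.

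**Figure D4:**
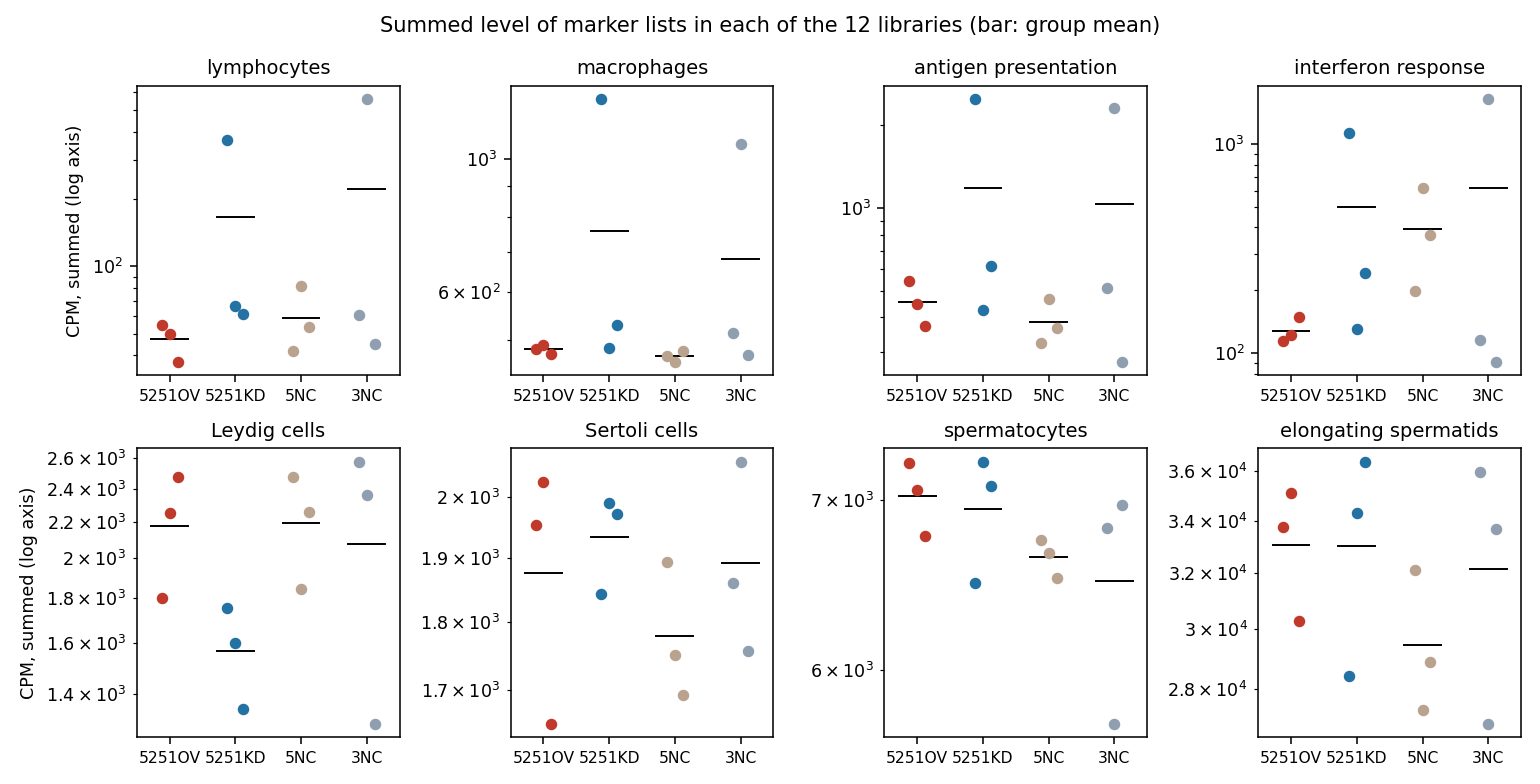
Summed level in CPM (log axes) of 8 marker lists in each of the 12 libraries, by group, with a bar at the group mean. Replicate 1 of KD and replicate 2 of 3NC stand above the rest in the 4 immune lists of the top row, at 369 and 561 CPM for lymphocytes, while the germ cell and Sertoli cell lists overlap between OV and KD.

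Germ cell and Sertoli cell markers did not separate the groups. None of 18 spermatogonia, 26 spermatocyte, 25 round spermatid, 25 elongating spermatid and 22 Sertoli cell genes passed the adjusted threshold by edgeR's quasi-likelihood test or by DESeq2. At an unadjusted p under 0.05 there was 1 spermatocyte gene, Syce3, and 1 round spermatid gene, Catsper4, both lower in OV, against 3.3% of all genes. The medians of the 5 lists lay between -0.01 and 0.07 on the log2 scale with all libraries. Without KD replicate 1 the elongating spermatid median was -0.12. The piRNA pathway list, whose members silence transposons in germ cells, had 3 of 18 genes at an unadjusted p under 0.05, all higher in OV, against 2.04% of all genes. They were Tdrd9, Mov10l1 and Exd1, with log2 fold changes of 0.22, 0.20 and 0.23, and none of them passed. When KD replicate 1 was left out, 1 of the 18 was higher at an unadjusted p under 0.05, against 3.08% of all genes.

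Of 18 tested genes whose proteins the study stained or blotted, 11 had a log2 fold change above 0 and 7 below, and none had an unadjusted p under 0.05 with all libraries, by edgeR, or was called by DESeq2. Their median was 0.04, and their log2 fold changes ran from -0.27 for Gdnf to 0.58 for Cyp11a1. Leaving out KD replicate 1, 1 of the 18, Cyp11a1, had an unadjusted p under 0.05, against 3.08% of all genes. Ddx4, an RNA helicase of germ cells, had 646, 635 and 786 CPM in OV and 620, 646 and 659 CPM in KD (log2 fold change 0.10, SE 0.10). Sycp3, a protein of the meiotic chromosome axis, had a log2 fold change of 0.15 (SE 0.10), Tnp1, which packs spermatid chromatin, of 0.04 (SE 0.15), and Pgk2, the glycolytic enzyme of late germ cells, of 0.09 (SE 0.09). Odf1, of the outer dense fibres of the sperm tail, was at -0.10 (SE 0.16), Cadm2, an adhesion protein, at 0.31 (SE 0.20), and Gdnf, the Sertoli cell factor that maintains spermatogonial stem cells, at -0.27 (SE 0.31). The groups overlapped for all 7 of these, from Ddx4 to Gdnf, and their adjusted p-values lay between 0.957 and 0.985 in edgeR's quasi-likelihood test. The 95% confidence interval of Ddx4 ran from -0.13 to 0.33 and that of Tnp1 from -0.31 to 0.38.

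Of 32 cell junction genes, 1 lay higher and 1 lower at an unadjusted p under 0.05, against 2.04% and 3.3% of all genes, and none passed after adjustment by edgeR or DESeq2. With KD replicate 1 left out, 3 lay higher and 0 lower, against 3.08% and 2.41%. With all libraries the groups did not overlap for 3 of the 32, all higher in OV, against 5.31% of all genes. Cldn5, a tight junction claudin of endothelium, had 7.95, 7.45 and 7.06 CPM in OV and 6.07, 5.51 and 4.59 CPM in KD (log2 fold change 0.47, SE 0.17). Icam1, an adhesion molecule that binds white blood cells, had 4.40, 2.595 and 2.78 CPM against 22.3, 3.32 and 4.72 CPM, with KD replicate 1 as the high value. The list's median was 0.02 with and without that library. Among 41 genes of the sperm tail and motility, 2 lay lower at an unadjusted p under 0.05, against 3.3% of all genes. These were Catsper4, a pore subunit of the sperm calcium channel, and Rsph1, of the radial spokes, at log2 fold changes of -0.29 (SE 0.11) and -0.25 (SE 0.09). Without KD replicate 1, 3 of the 41 lay lower, against 2.41% of all genes. The log2 fold change was then above 0 for 16 of them, against 26 with all libraries, and the median was -0.04, against 0.04.

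Outside that list, Catspere1 and Catspere2, neighbouring genes for accessory subunits of the same calcium channel, lay higher in OV. Catspere2 had 104, 93.4 and 106 CPM in OV and 70.2, 76.8 and 73.6 CPM in KD (log2 fold change 0.46, SE 0.08, adjusted p = 0.534). Catspere1 had 106, 86.0 and 88.5 CPM against 60.3, 67.0 and 68.7 CPM (log2 fold change 0.52, SE 0.10, adjusted p = 0.833). DESeq2 called both (adjusted p = 0.00361 and 0.01245). The groups did not overlap for either, and KD lay below all 6 controls for both. The pair was chosen after its values were seen.

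In the remaining lists no gene passed by edgeR or DESeq2. In the proteasome list, 3 of 11 genes had an unadjusted p under 0.05 and a lower level in OV, against 3.3% of all genes, and all 3 (Psmb8, Psmb9 and Psmb10, the subunits that interferon induces) were highest in KD replicate 1. They were at an unadjusted p under 0.05 and lower without it too, at -0.77, -1.07 and -0.62 on the log2 scale, against 2.41% of all genes. Of 17 immediate early genes, which respond within minutes to stimulation, 5 were lower at an unadjusted p under 0.05 with all libraries, against 3.3% of all genes, and none without KD replicate 1. The peritubular myoid, DNA methylation, Y-linked and neutrophil lists had none of 13, 14, 9 and 4. The endothelial list had Cldn5 alone of 15 and the erythroid list Hbb-bs alone of 6, both higher, against 2.04% of all genes, and the epididymis list Rnase10 alone of 2, lower.

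Some single genes outside the lists were also named by the size of their difference. Tmprss11a, a membrane serine protease, had 1.90, 1.93 and 3.17 CPM in KD, 0.131, 0.466 and 0.0793 CPM in OV and 0.0662 to 0.312 CPM in the controls (log2 fold change -3.29, SE 0.54, adjusted p = 0.448). It had 10 reads in OV and 106 in KD and so reached the count minimum only through KD, where it is high. Ryr3, a calcium release channel, had 52.1, 50.2 and 18.9 CPM in OV, 11.2 to 13.8 CPM in KD and 8.98 to 14.2 CPM in the controls. It did not pass with all libraries by edgeR (log2 fold change 1.69, SE 0.35, adjusted p = 0.833), and was by that test the only gene that passed without OV replicate 3, where it was 2.02 (adjusted p = 0.0216). Ednra, the endothelin A receptor of smooth muscle, had 4.27, 4.59 and 4.12 CPM in OV and 11.4, 8.96 and 8.91 CPM in KD (log2 fold change -1.17, SE 0.17, adjusted p = 0.337), with 3.04 to 9.80 CPM in the controls, a range that held all of OV and 2 of the 3 libraries of KD. DESeq2 called Tmprss11a, Ryr3 and Ednra with all libraries (adjusted p = 0.00637, 0.000245 and 0.00182).

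Others with groups that did not overlap were transcripts with no role to state. For 9230104L09Rik it was higher in OV by 2.47 (SE 0.40) on the log2 scale, and for LOC100862324 by 1.20 (SE 0.28). Gm15085 had 5.71, 8.32 and 3.57 CPM in OV and 1.52, 1.33 and 0 CPM in KD, while the controls ran from 0 to 11.3 CPM. Gm21489 had 2.04, 2.66 and 1.67 CPM in OV and 0, 0.598 and 0 CPM in KD, with 92 and 9 reads, and reached the count minimum only through OV, where it is high. None of the 4 passed by edgeR, and DESeq2 called 9230104L09Rik and LOC100862324 (adjusted p = 0.000245 and 0.00637).

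Because the virus groups were made in different vectors, the same genes were compared between the control viruses, 5NC against 3NC, which differ in the vector and in the control hairpin of 3NC. In that contrast 7 genes passed (0.0439%), all lower in 5NC, and 1025 had an unadjusted p under 0.05. None of the 7 was among the 3 genes of the direct contrast. The contrasts share no library. Over the 15962 genes, whose values are not independent, their log2 fold changes correlated with r = 0.58 (Pearson) and rho = 0.29 (Spearman). Without KD replicate 1 and 3NC replicate 2, the libraries with high immune lists, r was 0.11 and rho 0.23. Leaving out only KD replicate 1 gave an r of 0.20, and only 3NC replicate 2 an r of -0.04. The leave-outs were chosen after the data were seen.

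**Figure D5:**
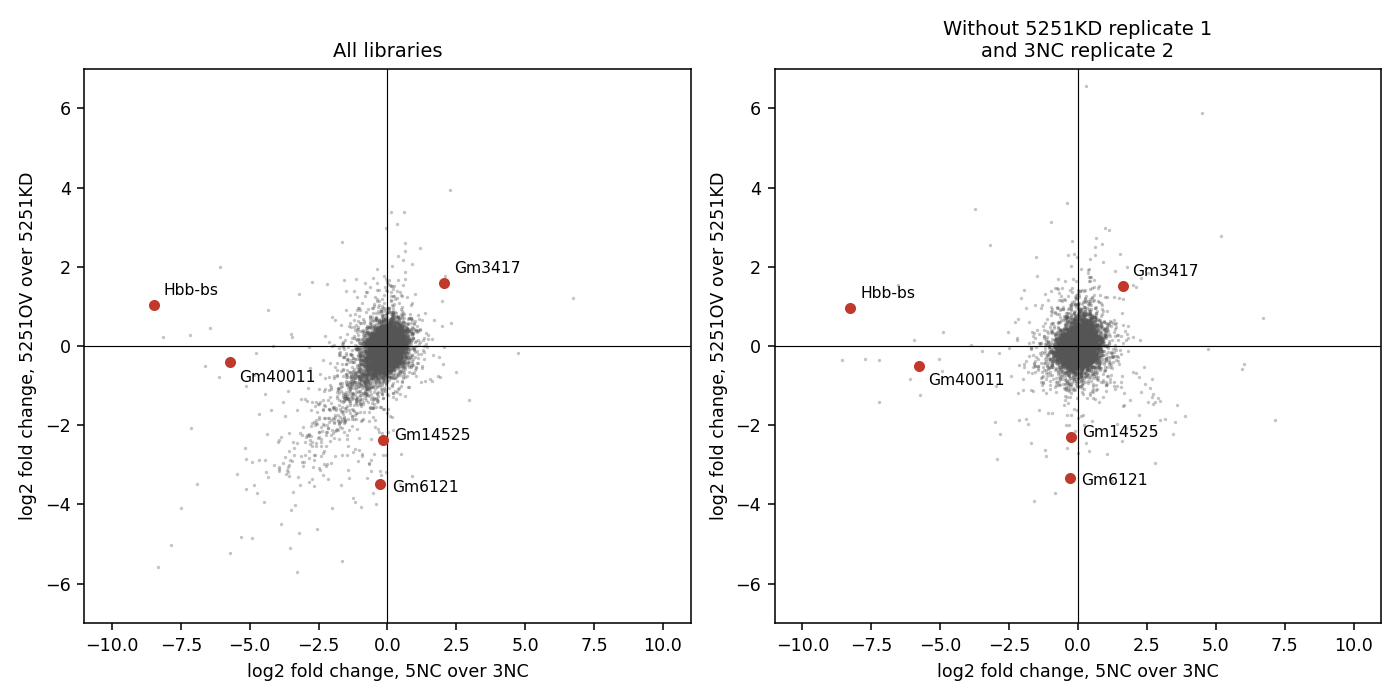
Log2 fold change of OV over KD against that of 5NC over 3NC for the 15962 tested genes, with all libraries (left, r of 0.58) and without KD replicate 1 and 3NC replicate 2 (right, r of 0.11). Red points mark 5 named genes, of which Gm6121 and Gm14525 lie low on the vertical axis and near 0 on the horizontal axis, and Hbb-bs and Gm40011 far to the left.

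The difference between the contrasts, OV minus KD less 5NC minus 3NC, passed for 4 genes (0.0251%). For Gm6121 the vector contrast was -0.25 (SE 0.24) and the difference -3.23 (SE 0.37, adjusted p = 0.00947). The other 3 were set by the controls. Hbb-bs, an adult beta-globin gene, had 1 read in the 3 libraries of 5NC together and 512 in those of 3NC, with 315 in OV and 163 in KD. Other beta-globin genes, which share much of its sequence, lay the other way, with 1203 reads of Hbb-b1 in 5NC and 391 in 3NC, and 257 and 68 of Hbb-b2. Gm40011 had 8 reads in 5NC, 465 in 3NC, 307 in OV and 429 in KD, and A530064D06Rik had 3, 240, 117 and 216. In the direct contrast Hbb-bs was at a log2 fold change of 1.04 (SE 0.31, adjusted p = 0.927), with 4.40, 10.4 and 7.30 CPM in OV above 3.23, 3.65 and 3.85 CPM in KD. For Gm3417 the vector contrast was 2.06 and the difference -0.47 (SE 0.93), which did not pass.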

How the data were processed

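RNA of F1 testes was sequenced in 12 libraries, of which the 6 of OV and KD, grouped by their titles, formed the comparison. Per the study's methods, the authors enriched messenger RNA with oligo(dT), whereas the labels name total RNA, and aligned reads with SOAPaligner. The labels name build mm10. The authors deposited estimated counts, unscaled and partly fractional, and RPKM values computed from them. The table's 18 per-sample columns of other groups and its group means were not used, and 20630 of 20788 gene numbers matched RefSeq.

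After rounding of the counts, genes with 10 or more reads in 3 or more of the 6 libraries were tested with edgeR 4.0.16 (TMM, glmQLFit with default settings, glmQLFTest) in R 4.3.3, with Benjamini-Hochberg adjustment over all 15962 genes and calls at 0.05. The spread between libraries beyond counting noise had an estimated coefficient of variation of 19.2%, and of 11.5% without KD replicate 1. The fit of all 6 libraries had 4 residual and 3.84 prior degrees of freedom. The tests were also run on simulated counts with no outlying library and no reads shared among copies. No result here rests on that run. CPM in the text is scaled by TMM over 12 libraries. Same-numbered libraries did not deviate together (r of 0.01, 0.09 and -0.07), so no pairing was used. Counts of libraries within a group differed by more than sampling noise. Depth limits the low genes, and the totals cover counting error only.

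Named genes were the 5 per direction with the smallest p, the non-overlapping genes with the largest differences, up to 4 of each list, the study's proteins, Purb, immune markers and the leading genes of the vector contrasts. Not every gene this rule gives is named. Genes named after their values were seen are marked or, for further Leydig genes, Tcte3 and its neighbours and the X-linked copies, were chosen likewise. The groups, members and gene lists were chosen with earlier results of these data known. Alternatives were RLE and unscaled totals, other filters, a replicate block, all 12 libraries, each library left out, DESeq2 1.42.0, limma 3.58.1 (log2 CPM, voom with quality weights, log2 RPKM + 0.1 or + 1), other edgeR settings, stricter thresholds, an exact binomial test and an immune covariate.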

Additional observations from a re-analysis of the deposited data

Results flagged for a closer look

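For 4 genes the difference between OV and KD departed from that between 5NC and 3NC, by a test of the difference itself in a fit of all 12 libraries (edgeR's quasi-likelihood test). The adjusted p was 0.00947 for Gm6121, 0.000843 for Hbb-bs, 0.000843 for Gm40011 and 0.00686 for A530064D06Rik. For Gm6121 the virus groups differed and the controls did not pass, and for the other 3 the 5NC libraries were at or near 0 reads, as given with their counts. The part of the vectors, the mice and the libraries in these differences was not tested.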

How the results depend on the processing

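The count of 3 genes, with 1 higher and 2 lower, was the same with RLE size factors, unscaled totals, filterByExpr, no filter beyond 1 read, 10 or more reads in all 6 libraries, limma-trend on log2 CPM and edgeR's robust option, and all 3 genes were shared in each. With edgeR's legacy setting changed there were 4 (1 higher, 3 lower), the 3 among them. DESeq2 called 42 genes (23 higher, 19 lower), limma voom with sample quality weights 16 (8 higher, 8 lower) and the fit with the immune level as a covariate 7 (6 lower). All 3 genes were among those of each. The replicate block left 1 gene, lower in OV, and none higher, and since the numbers did not pair the libraries this is only a change of model. The fit of all 12 libraries and log2 RPKM with either pseudocount called 0 genes higher. Leaving out 1 library at a time gave 0 to 9 genes, 0 to 3 of them higher and 0 to 6 lower. With the filter also set without KD replicate 1 there were 9 (3 higher, 6 lower), and with the copies summed 0. At an adjusted p of 0.001 and an absolute log2 fold change of 1 there were 0. The exact binomial test, which takes no account of the spread between libraries, called 5082 (2163 higher, 2919 lower). The cause of these changes was not tested.

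The vector contrast went from 7 genes to 1 with the replicate block, 77 with DESeq2 and 0 to 14 with 1 library left out (14 without 3NC replicate 3). The difference from it went from 4 genes to 42 with DESeq2 and 3 to 11 with 1 library left out, with 7 without 3NC replicate 2 and 11 without 3NC replicate 3. No named gene that passed changed direction. Of 1274 values of 54 named genes under 24 alternatives, 18 had the opposite sign, all of genes that did not pass. Leaving out 1 library at a time, Gm3435 ranged from -0.16 to 0.54, Insl3 from -0.048 to 0.035, Ddx4 from -0.0025 to 0.15, Tnp1 from -0.12 to 0.15, Odf1 from -0.20 to 0.052 and Purb from -0.055 to 0.085. With the filter also set without KD replicate 1, Insl3 was 0.034 and Tnp1 -0.12. With voom weights, Gm3435 was -0.19, Hsd3b1 -0.00082, Tnp1 -0.014 and Purb -0.0079. With the immune covariate, Insl3 was 0.048, C1qa 0.013 and Tnp1 -0.14. The filter without KD replicate 1, the summed copies and the correlations without libraries were chosen after the data were seen.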
